A study of Mus musculus with 4 samples.

Results

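The genes described here are 10 genes of the platelet surface and the platelet alpha-granule, found by matching the Ensembl identifiers of the count tables to the symbols Gp1ba, Gp1bb, Gp5, Gp9, Gp6, Clec1b, Pf4, Ppbp, Selp and Vwf. All 10 were among the 37140 genes that were listed for both cell populations of the series, and each symbol matched 1 identifier. RNA of flow-sorted mouse hematopoietic stem cells (HSCs) was sequenced in 4 libraries, with 1 library for each combination of Gfi1b genotype and population. Gfi1b is a transcriptional repressor of the erythroid and megakaryocytic lineages.

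The first population, called HSCs here, was gated as Lin- cKit+ Sca1+ CD48- CD150+ cells of the tibiae, femora and humeri of C57Bl6 mice, and the labels give no CD41 or CD9 gate for it, although the study's text calls such cells CD41+/CD9+. The second population, CD41low/CD9low HSCs, was gated in addition for low CD41 and CD9, 2 surface proteins that are abundant on megakaryocytes (MKs). Gfi1b KO mice carried Rosa-Cre and Gfi1b fl/fl and were treated with tamoxifen. According to the study's methods the WT mice were Rosa-Cre Gfi1b wt/fl and received tamoxifen as well. By that account both genotypes shared the Cre allele, the tamoxifen and a floxed allele. The deposited design text instead describes floxed mice with and without Cre, and which of these applies to the WT libraries could not be settled. The Rosa locus is active in nearly all tissues, so Cre was not limited to HSCs. Bone marrow of several mice was pooled before sorting, with more WT than KO mice, and the age of the mice was not given in the sources used here. A library is therefore 1 pool, and nothing measures the variation between pools or mice.

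The total count on genes was between 12732079 and 50781007 per library and was lower in the CD41low/CD9low libraries, where 3 counts correspond to 0.157 to 0.236 CPM, the count scaled to a total of 1000000 counts on genes. The HSC markers were detected in every library, with Kit at 989 to 1262 CPM. Other genes of the shared gate differed more between the populations. Slamf1 (CD150) was at 82.7 and 106 CPM in WT and KO HSCs and at 30.9 and 61.1 CPM in WT and KO CD41low/CD9low HSCs. In the same order of libraries Ly6a (Sca1) was at 23.5, 16.6, 48.9 and 51.0 CPM, and Cd48 at 6.01, 7.75, 1.26 and 2.20 CPM. Itga2b, which encodes CD41, was at 547 and 691 CPM in WT and KO HSCs and at 136 and 205 CPM in WT and KO CD41low/CD9low HSCs. Cd9 was at 185 CPM in both HSC libraries and at 109 and 133 CPM in the CD41low/CD9low libraries. The targeted gene Gfi1b had 9256 counts in WT HSCs, 49910 in KO HSCs, 611 in WT CD41low/CD9low HSCs and 9741 in KO CD41low/CD9low HSCs. These counts cover the whole gene and do not separate the floxed exons from the others, so they do not check the deletion, and WT and KO are used here as labelled. The sample titles name Gfi1, the paralog of Gfi1b, whereas the genotype labels name Gfi1b.

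Platelets bud from MKs and carry receptors that start adhesion where a vessel wall is injured. The GPIb-IX-V complex, built from the products of Gp1ba, Gp1bb, Gp9 and Gp5, binds von Willebrand factor. Glycoprotein VI, encoded by Gp6, binds collagen, and CLEC-2, encoded by Clec1b, binds podoplanin, and both signal through the tyrosine kinase Syk. Alpha-granules store proteins that are released on activation, among them the chemokines platelet factor 4 (Pf4) and pro-platelet basic protein (Ppbp), von Willebrand factor (Vwf) and P-selectin (Selp), which moves to the platelet surface. Some of these genes, Vwf among them, are also transcribed in HSCs, where Vwf marks stem cells with a platelet bias.

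MK gene promoters are known for GATA and ETS sites, and RefSeq upstream sequences (GRCm38.p6) were found for 9 of the 10 genes, all but Vwf. The 250 bases before the RefSeq start are shown for the 3 receptor genes that carried both motif types, and for Clec1b and Selp, whose KO/WT ratios in HSCs lay farthest from 1 in each direction. Each is written 5′ to 3′ on the strand of the gene, with GATAA or its reverse complement TTATC, and GGAAG or its reverse complement CTTCC, in capitals. The windows are chr11:70638872-70639121 (plus strand) for Gp1ba, chr16:30310782-30311031 (minus strand) for Gp5, chr6:87777820-87778069 (plus strand) for Gp9, chr6:129397047-129397296 (plus strand) for Clec1b and chr1:164115014-164115263 (plus strand) for Selp.
Gp1ba: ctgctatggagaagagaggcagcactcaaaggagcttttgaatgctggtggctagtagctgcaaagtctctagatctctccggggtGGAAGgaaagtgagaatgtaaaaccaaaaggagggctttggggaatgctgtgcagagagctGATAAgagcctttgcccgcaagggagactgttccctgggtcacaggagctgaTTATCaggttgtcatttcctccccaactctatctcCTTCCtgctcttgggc
Gp5: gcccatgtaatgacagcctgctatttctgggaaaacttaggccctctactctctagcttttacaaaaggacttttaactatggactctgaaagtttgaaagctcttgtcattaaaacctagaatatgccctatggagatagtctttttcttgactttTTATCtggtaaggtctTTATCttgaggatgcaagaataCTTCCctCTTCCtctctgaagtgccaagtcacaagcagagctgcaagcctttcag
Gp9: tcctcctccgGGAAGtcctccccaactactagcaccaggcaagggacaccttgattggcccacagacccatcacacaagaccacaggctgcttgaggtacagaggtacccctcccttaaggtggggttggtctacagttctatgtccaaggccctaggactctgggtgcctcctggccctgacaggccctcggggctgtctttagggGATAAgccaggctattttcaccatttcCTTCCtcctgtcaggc
Clec1b: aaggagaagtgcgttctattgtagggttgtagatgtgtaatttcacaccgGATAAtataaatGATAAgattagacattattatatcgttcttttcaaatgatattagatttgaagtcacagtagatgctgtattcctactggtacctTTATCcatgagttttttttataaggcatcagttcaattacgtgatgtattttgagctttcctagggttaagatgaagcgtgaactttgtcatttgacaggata
Selp: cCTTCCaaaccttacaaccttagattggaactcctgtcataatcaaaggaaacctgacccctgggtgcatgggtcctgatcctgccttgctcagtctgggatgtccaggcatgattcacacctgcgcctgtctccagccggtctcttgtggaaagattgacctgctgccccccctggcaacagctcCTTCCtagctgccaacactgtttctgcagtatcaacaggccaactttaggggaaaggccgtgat

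GATAA, on either strand, was found upstream of 5 of the 9 genes, namely Gp1ba, Gp5, Gp9, Gp6 and Clec1b, against 22.5% of 32536 RefSeq windows of the same length. Clec1b carried 3 matches and was without GGAAG, whereas Selp, Pf4, Ppbp and Gp1bb carried GGAAG on either strand and no GATAA. The ETS core GGAAG was present upstream of 7 of the 9 genes and of 64.1% of all windows, and both motifs together upstream of 3 of the 9 genes and of 13.2% of all windows. The 4-letter core AATC of the Gfi1 and Gfi1b motif, on either strand, was found upstream of 8 of the 9 genes and in 69.0% of all windows. In Gp1ba the only match to this core shares letters with a TTATC match. These are letter matches in a short window, and binding was not measured here.

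The 10 genes differed widely in level. Per kb of merged exon length (GENCODE annotation of GRCm38), Pf4 had the highest level of the 10 genes in each of the 4 libraries, with 199.7 CPM per kb in WT HSCs, 175 in KO HSCs, 19.9 in WT CD41low/CD9low HSCs and 18.3 in KO CD41low/CD9low HSCs. In WT HSCs it was followed by Vwf at 34.8, Gp9 at 26.8, Gp5 at 24.7 and Selp at 14.5 CPM per kb. The order went on with Gp1bb at 5.63, Ppbp at 5.27, Gp1ba at 2.53, Clec1b at 1.36 and Gp6 at 0.0634 CPM per kb. Of these neighbours, Gp9 and Gp5, and Gp1bb and Ppbp, had overlapping 95% counting intervals (exact, counting error only), and the others did not. In KO HSCs Clec1b reached 8.78 CPM per kb and stood 6th, and Selp, at 5.40, stood 8th. In KO CD41low/CD9low HSCs Pf4 and Gp9, at 18.3 and 15.0 CPM per kb, could not be ordered within their intervals, nor could Gp5 and Vwf at 8.38 and 7.82. The position of Clec1b depends on the length used, because its merged exons span 5103 bases and its longest coding transcript 1090: on the latter length it stood 6th in WT HSCs instead of 9th.

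As a share of the counts on the 10 genes, Vwf, a long gene, took 63.8% in WT HSCs, 70.2% in KO HSCs, 75.6% in WT CD41low/CD9low HSCs and 66.3% in KO CD41low/CD9low HSCs. The summed level of the 10 genes was 877, 966, 273 and 189.6 CPM in the same order of libraries. Without Vwf it was 317, 288, 66.6 and 64.0 CPM, so the KO library was then slightly below the WT library in both populations.

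**Figure D1:**
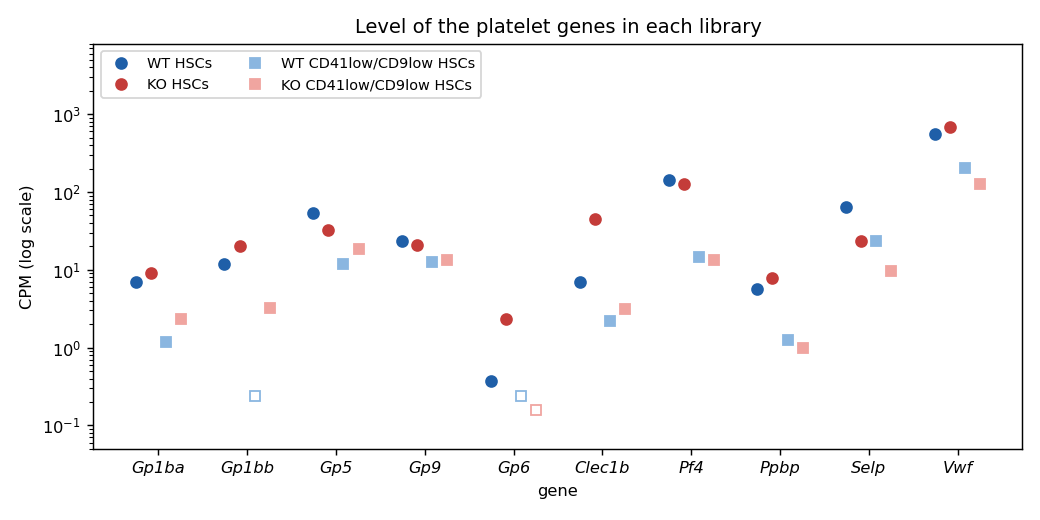
Level of each gene in CPM (log axis) in the 4 libraries, with circles for HSCs, squares for CD41low/CD9low HSCs, darker or lighter blue for WT and red for KO. Open squares are libraries with no count, drawn at the CPM of 3 counts. Vwf is highest in CPM, from 126 to 678, and Gp6 had no count in either CD41low/CD9low library.

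The first comparison is between the populations. All 10 genes were lower in CD41low/CD9low HSCs than in HSCs, in WT and in KO, by 1.70-fold or more where both libraries had counts. Pf4 showed the same fold in both genotypes within counting error, 10.6-fold in WT (95% counting interval 9.19 to 12.4) and 10.1-fold in KO (8.94 to 11.6). Gp9 showed the lowest fold of the genes with counts in every library, 2.01-fold in WT (1.70 to 2.38) and 1.70-fold in KO (1.47 to 1.96). At the cutoff of 0.6 for the ratio of CD41low/CD9low HSCs over HSCs, 10 of 10 genes were lower in WT and 10 of 10 in KO, against 20.2% and 21.1% of all genes, and none was above the cutoff of 1.5, against 18.6% and 18.4% of all genes. Gp9 in KO lay just inside the lower cutoff, at 0.589 (0.510 to 0.679). With total-count scaling its log2 ratio moved from -0.76 to -0.67, and it no longer passed. The median log2 ratio of the 10 genes was -2.01 in WT and -2.63 in KO, beside -0.06 and -0.07 over all genes. In a bulk library fewer cells that express a gene and less RNA per cell cannot be told apart. CD41 itself was part of the gate, and population, sequencing depth and the annotation release used for counting differed together, so they cannot be told apart either.

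Several folds differed between the genotypes. Clec1b, the CLEC-2 gene, was 3.36-fold higher in HSCs than in CD41low/CD9low HSCs in WT (2.28 to 5.13) and 15.2-fold in KO (11.7 to 20.0). For Vwf the fold was 2.88 in WT (2.77 to 3.0) and 5.74 in KO (5.50 to 5.98). Gp5, the GPV gene, went the other way, with 4.89-fold in WT (4.15 to 5.81) and 1.87-fold in KO (1.66 to 2.11). For Clec1b, Vwf and Gp5 the intervals of the genotypes did not overlap, but with 1 library per group they cover counting error only. The share of all genes without such overlap is not given here. Selp was 2.91-fold higher in WT and 2.66-fold in KO, Gp1ba 6.20-fold and 4.18-fold, and Ppbp 4.83-fold and 8.52-fold, each with overlapping intervals. Gp6 had no count in either CD41low/CD9low library, and with 3 counts in their place it was at least 1.69-fold higher in WT HSCs and at least 15.6-fold higher in KO HSCs.

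Fitted over all 4 libraries with edgeR's quasi-likelihood test (population and genotype as terms, Benjamini-Hochberg adjustment over 14940 genes), 9 of the 10 genes were lower in CD41low/CD9low HSCs, against 12.6% of all genes lower and 8.24% higher. This fit treats the genotypes as replicates of the population effect, with 1 residual degree of freedom. Pf4 fell by 3.35 on the log2 scale (SE 0.17, adjusted p = 1.0e-09) and Vwf by 2.0 (SE 0.19, adjusted p = 1.8e-06). Clec1b had a log2 fold change of -2.91 (SE 0.43, adjusted p = 1.6e-04) and Selp of -1.45 (SE 0.21, adjusted p = 1.6e-04). In the GPIb-IX-V complex, all 4 genes passed: Gp1ba fell by 2.30 (adjusted p = 0.00482), Gp5 by 1.55 (adjusted p = 9.2e-04) and Gp9 by 0.86 (adjusted p = 0.0245), while the fitted value of Gp1bb (adjusted p = 5.5e-04) depends on a library with no count. Ppbp fell by 2.66 (SE 0.61, adjusted p = 0.00501), and Gp6 did not pass (adjusted p = 0.0668). With DESeq2 in place of edgeR, Gp9 (adjusted p = 0.0839) and Gp1bb (adjusted p = 0.148) no longer passed and Gp6 did (adjusted p = 0.0342).

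**Figure D2:**
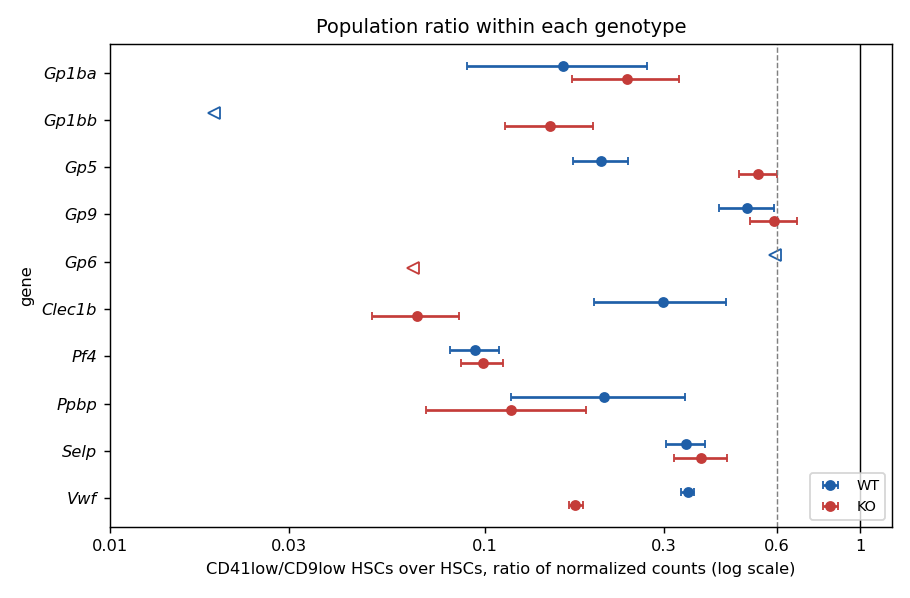
Ratio of CD41low/CD9low HSCs over HSCs (log axis) for each gene in WT (blue) and KO (red), with 95% counting intervals. Open triangles are upper bounds for genes with no count in the CD41low/CD9low library, the dashed line is the cutoff of 0.6 and the solid line is 1. All points lie left of the cutoff, Pf4 at 0.0940 in WT and 0.0985 in KO.

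The second comparison is between the genotypes within each population and asks what the loss of Gfi1b does to these genes. The 10 genes did not move in one direction. In HSCs 3 of 10 were above a KO/WT ratio of 1.5, against 14.1% of all genes, namely Clec1b, Gp6 and Gp1bb, and 1 of 10, Selp, was below 0.6, against 10.3% of all genes. In CD41low/CD9low HSCs 9 of the 10 genes passed the filter of 10 counts in 1 library. Of these, 3 were above 1.5, against 13.5% of all genes, namely Gp1ba, Gp1bb and Gp5, and again Selp was the 1 gene below 0.6, against 12.0%. The median log2 KO/WT was 0.36 in HSCs, with 0.08 in CD41low/CD9low HSCs, while over all genes it was 0.00 and 0.01. These ratios have no replicate check. Gp5 in HSCs (0.605) and Vwf in CD41low/CD9low HSCs (0.610) lay just outside the lower cutoff, and Gp5 in CD41low/CD9low HSCs (1.56) just inside the upper one.

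Among the genes of the von Willebrand factor receptor, Gp1ba, which encodes the subunit that binds von Willebrand factor (GPIb alpha, chr11:70639122-70642036, GRCm38), was at 6.87 CPM in WT HSCs, 9.04 in KO HSCs, 1.18 in WT CD41low/CD9low HSCs and 2.30 in KO CD41low/CD9low HSCs. KO was above WT in both populations, with KO/WT of 1.33 (1.15 to 1.55) in HSCs, beside 1.96 (1.07 to 3.78) in CD41low/CD9low HSCs, the latter from 15 and 44 counts. Gp9, encoding the small subunit GPIX (chr6:87778072-87779768), was at 23.6, 21.0, 12.5 and 13.2 CPM in the same order of libraries. Its KO/WT ratios were nearest to 1 within the complex, at 0.904 (0.827 to 0.987) and 1.06 (0.863 to 1.30).

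Gp5, whose product GPV is loosely attached to the complex and is cleaved by thrombin (chr16:30307685-30310779), was at 54.3, 32.4, 11.8 and 18.4 CPM. KO was below WT in HSCs and above WT in CD41low/CD9low HSCs: KO/WT was 0.605 (0.566 to 0.646) and 1.56 (1.29 to 1.91). The log2 KO/WT thus differed by 1.37 between the populations (95% counting interval 1.08 to 1.66), a difference for which the design holds no test. The promoter window of Gp5 shown above holds 2 TTATC and 2 CTTCC matches.

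Gp1bb, encoding GPIb beta (chr16:18620317-18622403), had 597 counts in WT HSCs, 839 in KO HSCs, 0 in WT CD41low/CD9low HSCs and 61 in KO CD41low/CD9low HSCs. Its KO/WT ratio was 1.73 (1.56 to 1.93) in HSCs and at least 13.6 in CD41low/CD9low HSCs with 3 counts in place of 0. These values are uncertain, since 91.1% of the exon bases of Gp1bb are also exon bases of Sept5 on the same strand, and how reads there were assigned depends on the counting mode and the annotation release. Sept5 itself had 179, 324, 29 and 42 counts. In the fit over all 4 libraries none of the 4 genes of the complex passed for genotype (Gp1bb: log2 fold change 1.91, SE 0.64, adjusted p = 0.254; Gp1ba: 0.65, SE 0.51, adjusted p = 0.781; Gp5: -0.09, SE 0.28, adjusted p = 0.983; Gp9: -0.04, SE 0.25, adjusted p = 0.989).

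The receptors that signal through Syk had the highest KO/WT ratios in HSCs. Clec1b (chr6:129397297-129409335) had 353 counts in WT HSCs, 1868 in KO HSCs, 28 in WT CD41low/CD9low HSCs and 60 in KO CD41low/CD9low HSCs, or 6.95, 44.8, 2.20 and 3.14 CPM. KO HSCs stood apart from the other 3 libraries. KO/WT was 6.53 (5.83 to 7.34) in HSCs, beside 1.43 (0.898 to 2.32) in CD41low/CD9low HSCs, where the interval included 1, and log2 KO/WT was lower by 2.19 in CD41low/CD9low HSCs (95% counting interval of the difference -2.86 to -1.53). In the fit over 4 libraries Clec1b just missed the threshold for genotype (log2 fold change 1.82, SE 0.42, adjusted p = 0.0539), with adjusted p between 3.3e-05 and 0.146 over the alternatives tried. Clec1b shares 3.6% of its exon bases with Clec9a.

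Gp6 (chr7:4363965-4397744) had 19 counts in WT HSCs, 96 in KO HSCs and 0 in both CD41low/CD9low libraries. It was the gene with the lowest level of the 10, at 0.374 and 2.30 CPM in HSCs. KO/WT in HSCs was 6.24 (3.78 to 10.8), no ratio could be given in CD41low/CD9low HSCs, and the 4-library fit gave adjusted p = 0.836 for genotype.

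Of the alpha-granule genes, Selp stood out. P-selectin tethers leukocytes to activated platelets and endothelium, and its gene (chr1:164115264-164150026) was at 63.9 CPM in WT HSCs, 23.8 in KO HSCs, 23.3 in WT CD41low/CD9low HSCs and 9.52 in KO CD41low/CD9low HSCs. KO was below WT in each population, and KO HSCs were at the level of WT CD41low/CD9low HSCs. KO/WT was 0.378 (0.352 to 0.406) in HSCs, beside 0.409 (0.338 to 0.493) in CD41low/CD9low HSCs, and the log2 ratios differed by 0.11 with a counting interval of -0.17 to 0.40 that included 0. In the 4-library fit Selp was the 1 gene of the 10 that passed for genotype (log2 fold change -1.35, SE 0.21, adjusted p = 0.00297), against 0.308% of all genes lower and 0.535% higher. Clec1b and Gp1bb were also higher at an unadjusted p under 0.05 in edgeR's test. After adjustment 0 of the 10 genes were higher in the main edgeR fit, as with DESeq2. In edgeR with total-count scaling Clec1b passed as higher (adjusted p = 0.0130). With no count filter Clec1b (adjusted p = 3.3e-05) and Gp1bb (adjusted p = 0.00153) did. Selp passed under every alternative of this fit, with adjusted p between 8.7e-07 and 0.0104. The antisense genes Gm16587 and Gm16548, which overlap its exons, had at most 5 counts in a library.

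Vwf (chr6:125546774-125686679) was at 559.5, 678, 206 and 126 CPM in the same order of libraries. KO was above WT in HSCs and below WT in CD41low/CD9low HSCs, with KO/WT of 1.23 (1.21 to 1.25) and 0.610 (0.577 to 0.645). At 28414, 28257, 2625 and 2402 counts it was the most deeply counted of the 10 genes, and the log2 ratio was lower by 1.01 in CD41low/CD9low HSCs (counting interval of the difference -1.09 to -0.93). The 4-library fit, which averages the populations, gave a log2 fold change of -0.20 (SE 0.19, adjusted p = 0.838).

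The chemokine genes Pf4 (chr5:90772435-90773383) and Ppbp (chr5:90768518-90770063) lie next to each other. Pf4, which is often used as an MK marker and as a Cre driver for MKs, was at 144, 126, 14.4 and 13.2 CPM. In HSCs its KO/WT ratio was 0.889 (0.858 to 0.921), against 0.922 (0.759 to 1.12) in CD41low/CD9low HSCs, so that KO was slightly below WT in both, with an interval that included 1 in the latter. Ppbp, the precursor of a neutrophil-attracting chemokine, was at 5.71, 7.96, 1.26 and 0.994 CPM, with KO/WT of 1.41 (1.20 to 1.66) and 0.792 (0.386 to 1.65), the latter from 16 and 19 counts. Neither passed for genotype in the 4-library fit (adjusted p = 0.884 for Pf4 and 0.986 for Ppbp).

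**Figure D3:**
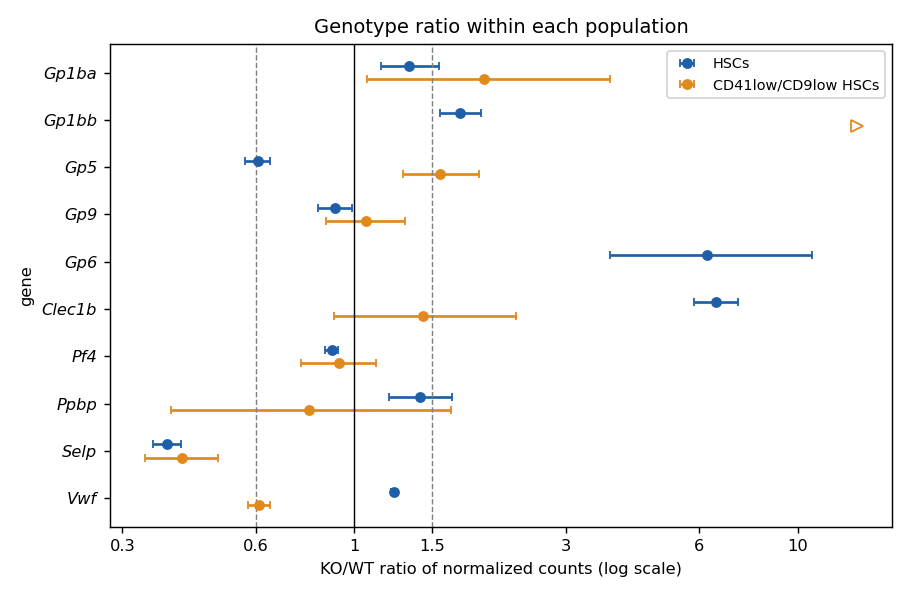
KO/WT ratio (log axis) of each gene in HSCs (blue) and CD41low/CD9low HSCs (orange), with 95% counting intervals. Dashed lines mark 0.6 and 1.5, the solid line marks 1, and the open triangle is the lower bound of Gp1bb, 13.6. Selp lies left of 0.6 in both populations, and Clec1b lies at 6.53 in HSCs, against 1.43 in CD41low/CD9low HSCs.

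The genes next to Selp and Clec1b were compared in the same way. The gene nearest to Selp, the coagulation factor V gene F5 at 1.8 kb, was not lower in KO, with KO/WT of 1.02 (0.933 to 1.12) in HSCs, beside 1.56 (1.11 to 2.23) in CD41low/CD9low HSCs.

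Clec1b lies in a cluster of C-type lectin genes on chromosome 6. In HSCs Clec9a, best known from dendritic cells, was higher in KO with KO/WT of 4.49 (3.75 to 5.41), as were Clec12b at 6.48 (3.46 to 13.2) and Clec1a at 2.28 (2.17 to 2.39). Clec12a, at 1.19 (1.07 to 1.34), and Olr1, at 0.991 (0.677 to 1.44), lay between the cutoffs. In CD41low/CD9low HSCs Clec1a was at 1.08 (0.981 to 1.18), Clec12b had no count, Clec9a had 1 count in WT and 18 in KO, and Clec12a had 152 counts in WT and 15 in KO, a ratio of 0.0658 (0.0359 to 0.112). The higher ratios thus covered 4 adjacent genes of this cluster in HSCs. Pf4 and Ppbp had 1 further neighbour above 1.5 in HSCs, Cxcl5, at 7 and 20 counts.

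**Figure D4:**
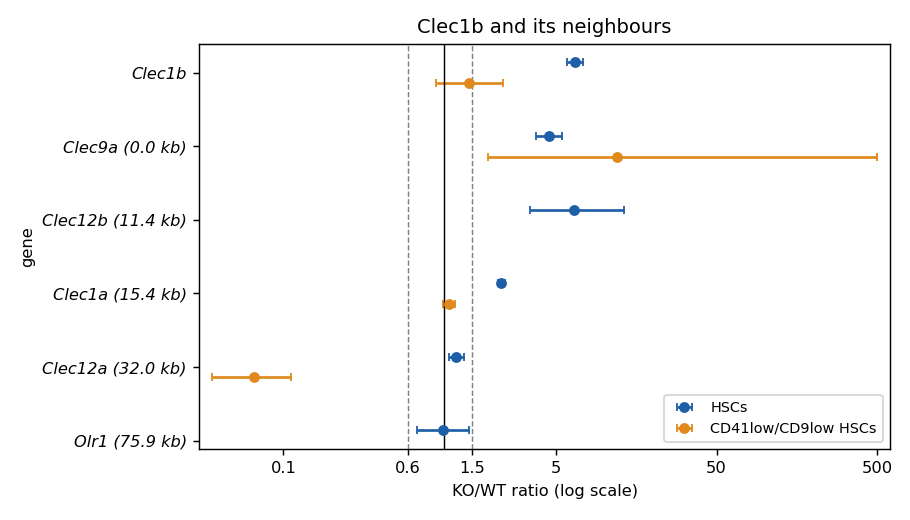
KO/WT ratio (log axis) of Clec1b and of its neighbours within 100 kb that passed the count filter in at least 1 population, in HSCs (blue) and CD41low/CD9low HSCs (orange), with the distance between gene bodies in kb, 95% counting intervals and cutoffs at 0.6 and 1.5. Clec1b, Clec9a, Clec12b and Clec1a lie right of 1.5 in HSCs, and Clec12a lies at 0.0658 in CD41low/CD9low HSCs.

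The other genes of platelet function gave the setting for these values. Over all genes 14.1% were above and 10.3% below the cutoffs in HSCs, and 13.5% and 12.0% in CD41low/CD9low HSCs. In the 4-library fit 0.535% of all genes were higher and 0.308% lower for genotype. For population 8.24% were higher and 12.6% lower in CD41low/CD9low HSCs. Of 21 further platelet receptors, 6 were above and 3 below the cutoffs in HSCs, and 6 and 2 of 19 in CD41low/CD9low HSCs. Their median log2 KO/WT was 0.23 and 0.08. In the 4-library fit 3 of 20 were higher in KO: the integrin subunit Itgb3, with KO/WT of 3.32 in HSCs, against 2.74 in CD41low/CD9low HSCs, the thrombin receptor F2r at 2.89 and 2.44, and Treml1, a receptor of the alpha-granule membrane, at 1.76 and 2.03. Itga2b, the most abundant per kb in WT HSCs and the partner of Itgb3, was at 1.28 and 1.5. Cd226 had the lowest ratio in HSCs, 0.261, from 137 and 29 counts, and Cd36 was at 0.285 and 0.571. By population, 10 of 20 were lower in CD41low/CD9low HSCs.

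Of 20 other alpha-granule cargo and biogenesis genes, 5 were above and 2 below the cutoffs in HSCs, against 14.1% and 10.3% of all genes. In CD41low/CD9low HSCs 5 were above and 3 below, against 13.5% and 12.0% of all genes. The medians were 0.00 on the log2 scale in both populations. For genotype, Timp3, an inhibitor of metalloproteinases, passed as higher (KO/WT 4.20 and 5.60), as did Serpine2, an inhibitor of thrombin (3.37 and 1.84), and Thbs1, thrombospondin, passed as lower (0.492 and 0.334, adjusted p = 0.0206). By the ratio cutoffs alone, Cd63 was also lower in HSCs (0.546), and Anxa3 (0.384) in CD41low/CD9low HSCs. Sparc had the highest ratio in HSCs, 5.91, and F13a1, the factor XIII A chain, the lowest in CD41low/CD9low HSCs, 0.0509. Angpt1, the most abundant of the list per kb, was at 0.978 and 1.13. Nbeal2, which is required for alpha-granules to form, was at 1.24 and 1.03. By population 11 of 20 were lower, against 12.6% of all genes, and 2, Cd63 and Nbeal2, higher, against 8.24%.

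Of 16 genes that act just below the receptors, 2 were above 1.5 in HSCs, Rap1b at 2.05 and Fyn at 1.64, against 14.1% of all genes. In CD41low/CD9low HSCs 0 of 16 passed a cutoff, against 13.5% of all genes above 1.5 and 12.0% below 0.6. The lowest adjusted p for genotype in the 4-library fit was 0.104, for Fyn. Syk, the kinase that the receptors encoded by Clec1b and Gp6 use, was at 1.34 and 0.997. Of 14 MK transcription factors, 6 were above 1.5 in HSCs and 5 in CD41low/CD9low HSCs, against 14.1% and 13.5% of all genes. Both counts include the targeted gene Gfi1b itself, at 6.66 and 10.6. In the fit 4 passed as higher, Gfi1b, Gfi1 and Gata2 among them, against 0.535% of all genes. Gfi1 was at 9.56 and 4.27, and Gata2 at 1.98 and 1.95. Gata1, which drives many platelet genes, was at 0.783 in HSCs, against 2.72 in CD41low/CD9low HSCs. The part of these factors in the values of the 10 genes was not tested. Fli1, an ETS factor of MKs and the most abundant of the list per kb in WT HSCs, was at 1.46 and 1.13.

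**Figure D5:**
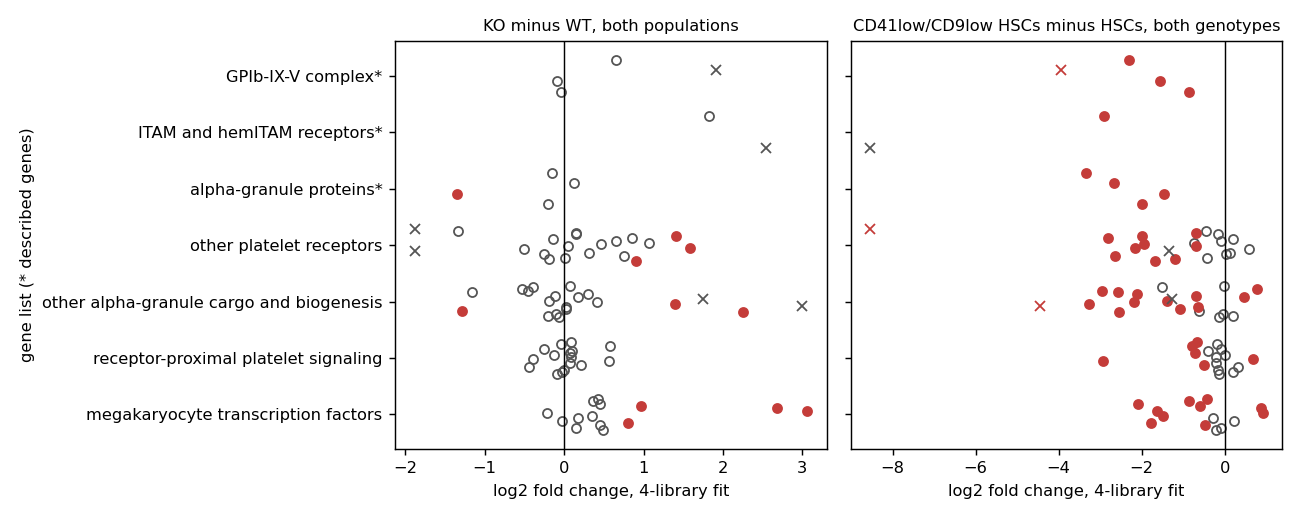
Log2 fold change of each gene in the 4-library fit for genotype (left) and population (right), grouped by list, where an asterisk marks the lists of the 10 genes. Red marks passed at adjusted p under 0.05, grey ones did not, and crosses are genes with no count in at least 1 library, whose value depends on the prior count. Selp is the red point on the left among the 10 genes, at -1.35, and on the right all lists hold genes that were lower in CD41low/CD9low HSCs.

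Markers of other cells moved with both comparisons. Of 12 MK maturation markers 11 passed the filter between the populations (1 of them, Cmtm5, had no count in any library). Of these 11, 7 were below 0.6 in WT and 10 in KO, against 20.2% and 21.1% of all genes. Their summed level went from 1951 to 765 CPM in WT and from 3634 to 985 CPM in KO. Between genotypes the same list held 5 genes above and 1 below the cutoffs in HSCs, against 14.1% and 10.3% of all genes. Plek was at 3.07 and 1.76, and Tubb1, the tubulin of platelets, was below 0.6 in both populations as Selp was, with 505 and 85 counts in HSCs and 54 and 22 counts in CD41low/CD9low HSCs, ratios of 0.208 and 0.272 (adjusted p = 0.114 in the 4-library fit). The part of MK RNA in the values of the 10 genes was not tested.

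Granulocyte markers differed between the CD41low/CD9low libraries: 10 of 10 were below 0.6 in KO, against 12.0% of all genes. Their summed level was 452, 541, 1134 and 281 CPM in the same order of libraries. Erythroid markers did likewise, with 8 of 9 below 0.6 in KO CD41low/CD9low HSCs, among them the globin gene Hbb-bs at 1009 counts in WT and 18 in KO, and with a summed level of 955, 486, 915 and 713 CPM, most of it Car2. Their part in the lower Vwf and Selp of KO CD41low/CD9low HSCs was not tested. In HSCs 0 of 10 granulocyte and 3 of 10 erythroid markers were below 0.6, against 10.3% of all genes. More were above 1.5, namely 2 of 10 granulocyte and 5 of 10 erythroid markers, against 14.1% of all genes. Among the latter was Hbb-bs, at a KO/WT ratio of 7.68. Lymphoid markers summed to 21.3 to 33.2 CPM, with 7 of 10 at 0 in each CD41low/CD9low library. Of the endothelial markers, which HSCs share in part, the summed level was 609 to 685 CPM, and Cdh5, a defining one, had 16, 11, 0 and 0 counts.

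Over the 4 libraries, the genes whose pattern was nearest to the mean pattern of the 10 genes (distance between centred log2 CPM with a pseudocount of 0.5, among 14940 genes) were Gm15859, Aqp1, Vmn2r29, Nrp1, Rab27b, Dgki, Ly86, 1700006J14Rik, Ripor3 and St6galnac2. Distances ran from 0.03 to 0.30, and 7 of these genes had at most 2.30 CPM. With a pseudocount of 1, Aqp1, Rab27b and Ripor3 stayed among the nearest 10. Aqp1, a water channel, was at 183, 200.5, 44.4 and 49.8 CPM, and Rab27b, a small GTPase of platelet granules, at 122, 187, 32.7 and 36.8 CPM. Of the 10 genes themselves, Ppbp (0.36) and Gp1ba (0.37) were nearest to the mean pattern, and Gp1bb (2.40), Selp (1.78) and Clec1b (1.66) farthest from it.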

How the data were processed

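The deposited files hold HTSeq counts per Ensembl gene, which the authors made from TruSeq Stranded mRNA libraries aligned to mm10 with TopHat2 2.0.10 (with SAMtools and DESeq also named). The HTSeq version, strand setting and annotation release are not given in the sources used here. The HSC and CD41low/CD9low tables list different gene sets, so 37140 shared genes were used. Lines of reads without a unique gene were left out, and unassigned (no feature) reads numbered 60.12 to 105.3 per 100 counts on genes.

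Within each pair, counts were scaled with size factors from the median of ratios. Ratios above 1.5 or below 0.6, the cutoffs of the study, were called for genes with at least 10 counts in 1 library of the pair. Intervals are Clopper-Pearson 95% intervals and cover counting error only, and a bound takes 3 counts for 0. With 1 library per group the only tests were those of edgeR 4.0.16 (quasi-likelihood, TMM, population plus genotype, at least 10 counts in 2 libraries, Benjamini-Hochberg, threshold 0.05), in R 4.3.3, with DESeq2 1.42.0 as an alternative. Other scalings, filters, cutoffs and a pseudocount were varied. Python 3.11.15 with scipy 1.17.1 did the rest. The scripts were tested on simulated data.

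The 10 genes and all lists were chosen with earlier results of these data known. The text names the 10 genes, Gfi1b, the sort markers, some of the extreme ratios and of the most abundant genes of the lists, and the 10 nearest patterns. Neighbours within 100 kb and other genes named from the lists were chosen after their values were seen. Some genes are not reported here.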

Additional observations from a re-analysis of the deposited data

Results flagged for a closer look

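For Gp5, Vwf, Gp9 and Ppbp the KO/WT ratios lay on opposite sides of 1 in the 2 populations. The share of all genes with such ratios is not given here, so this alone does not set the 10 genes apart. The differences of log2 KO/WT, CD41low/CD9low HSCs minus HSCs, were 1.37 for Gp5 (counting interval 1.08 to 1.66) and -1.01 for Vwf (-1.09 to -0.93), and for both genes each population's own interval excluded 1. For Gp9 the difference was 0.23 (-0.09 to 0.54) and for Ppbp -0.84 (-1.82 to 0.15), with intervals that include 0. The differences themselves were not tested, since 1 library per group leaves no residual degree of freedom.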

How the results depend on the processing

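No paired analysis was possible because each group has 1 library and the labels carry no replicate numbers, and no library could be left out for the same reason. Of 185 alternative values for single genes, 0 reversed direction, and 176 stayed on their side of the test's threshold or, for ratios without a test, within their counting interval. In HSCs 2 of the 10 genes, Gp5 beside Selp, were below the lower cutoff with total-count scaling, with size factors over all 4 libraries and with a cutoff of 1/1.5, and in CD41low/CD9low HSCs that cutoff also gave 2, with Vwf, while a filter of at least 50 counts left 2 of the 3 genes above 1.5, without Gp1ba. For genotype, total-count scaling called 1 of the 10 genes higher (Clec1b, adjusted p = 0.0130) and no count filter 2 (Clec1b, 3.3e-05, and Gp1bb, 0.00153). Without a filter Gp6 passed for population (0.0351). With total-count scaling the log2 population ratio of Vwf moved to -1.44 in WT and -2.43 in KO. The longest coding transcript in place of merged exons, an alternative chosen after seeing the data, left 6 of 10 ranks in WT HSCs as they were. A pseudocount of 1 kept 3 of the 10 nearest patterns.

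Over all genes, with no filter 4354 were above and 2649 below the cutoffs in HSCs and 3121 above in CD41low/CD9low HSCs, and with at least 50 counts 1431 and 792 in HSCs and 982 and 702 in CD41low/CD9low HSCs. For genotype in the 4-library fit, 121 were higher and 85 lower with total-count scaling, 254 and 166 with no filter, 50 and 19 with at least 50 counts, and DESeq2 called 30 lower. These compare with 80 higher and 46 lower as reported. Depth limits the CD41low/CD9low values most, where 3 counts are 0.157 to 0.236 CPM and Ppbp, Gp1ba and Clec1b rest on at most 60 counts.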

Other observations

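A pair of genes in the wider lists moved further apart between the populations than any of the 10 genes that had counts in every library. F13a1 had 677 counts in WT HSCs, 1022 in KO HSCs, 131 in WT CD41low/CD9low HSCs and 10 in KO CD41low/CD9low HSCs, so that KO/WT was 1.86 in HSCs, beside 0.0509 in CD41low/CD9low HSCs. Slc35d3, a gene of platelet dense granules, had 468, 1802, 180 and 26 counts, with KO/WT of 4.75 and 0.0963. Neither passed for genotype in edgeR's quasi-likelihood test over the 4 libraries (adjusted p = 0.717 and 0.987), and the difference between the populations was not tested. Procr, which encodes the HSC marker EPCR, was higher in KO in both populations (2.20 and 1.52, adjusted p = 0.0117) and, unlike the 10 genes, higher in CD41low/CD9low HSCs than in HSCs (3.40-fold in WT and 2.38-fold in KO). These genes were chosen after their values were seen.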
